A study of Mus musculus with 4 samples.

Results

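The shape of H3K4me3 peaks was measured in 1 chromatin immunoprecipitation sequencing (ChIP-seq) library set against 1 library of whole-cell extract (WCE), which are 2 of the 4 libraries of the series. Peaks were taken as regions in which H3K4me3 reads exceeded WCE on the autosomes, and 19057 such regions were found. The cells were MDER 10T mouse fibroblasts, which carry an estrogen-inducible MyoD1 by the title of the series. They were grown in phenol-red-free DMEM/F12 with 10% FCS, and the labels name no estrogen treatment and no clone. The other libraries, H3K27me3 and H3K9me3, came from the same kind of cells and were used here only to measure the places that H3K4me3 defined. Chromatin had been sonicated to a mean of 500 bp, amplified for 18 cycles and cut from a gel at 150 to 350 bp, which holds inserts of 50 to 200 nt. Each group held 1 library, so there was no replicate spread, and every test compares 2 libraries and not conditions.

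Trimethylation of lysine 4 on histone H3 is placed by the SET1 and MLL enzyme complexes and marks the nucleosomes around active or poised promoters. Nucleosomes are often depleted over a transcription start, so the mark is known to appear as a pair of flanking peaks with a valley between them. Regions are given by mm8 position only, since no mm8 annotation was used here, and no peak was tied to a gene or to a direction of transcription.

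After repeated positions were counted once, the autosomes held 2101444 to 3086567 reads per library, with 3086567 for H3K4me3 and 2977697 for WCE. Intervals are 95% exact (Clopper-Pearson) intervals, except that intervals on the ratio between libraries' valley ratios use a normal approximation on the log scale. They describe the error of counting alone: the libraries were amplified and carry no molecular identifiers, so reads are not separate molecules for certain. Valley and flank counts can share reads, so intervals on valley ratios are approximate.

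H3K4me3 reads were packed into short regions. Of 11027525 tiles of 200 bp tested, 73015 were called above WCE (0.662% of all tiles), by a one-sided Poisson test with Benjamini-Hochberg adjusted p under 0.05 and at least 2 times the expectation. With the libraries swapped, 206 tiles were called (0.00187%). Called tiles were joined across gaps of up to 400 bp into the regions, which covered 16.7 Mb. They held 39.0% (38.9 to 39.1%) of H3K4me3 reads and 3.84% (3.82 to 3.87%) of WCE reads. Since the regions were called on these reads, that contrast describes the choice and is not a test of it.

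Most regions were narrow. The median width was 600 bp with quartiles of 200 and 1200 bp, and 6613 regions (34.7%) were a single tile. Single-tile regions had a median of 6 reads, where a call needed at least 4. The 4822 regions with at least 100 reads had a median width of 1600 bp with quartiles of 1400 and 2000 bp. Only 1731 regions (9.08%) reached 2000 bp and 109 reached 4000 bp. Width followed read number: regions of 4 to 19 reads had a median width of 200 bp, those of 50 to 99 reads 1000 bp, and those of at least 200 reads 2400 bp. The density inside rose as well, from 31.5 H3K4me3 reads per kb in the smallest class to 96.6 in the largest. WCE density rose over the same classes from 4.99 to 8.02 reads per kb. Single-tile regions had a pooled H3K4me3 to WCE ratio of 5.99 (5.84 to 6.14), against 10.4 (10.4 to 10.5) in wider ones. Reads were summed over the called span, so a wider region holds more reads by construction. Classes, densities and ratios also use the reads that called the regions, so they are descriptions only.

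Height was read as the highest sum of reads in 300 bp, in the 4822 regions with at least 100 reads. The median height was 56 reads, with quartiles of 45 and 68 and a range of 19 to 163, where an even spread over the autosomes would give 0.420 reads. The highest WCE sum in the same regions had a median of 5 reads. The half-maximum width, the span between the outermost steps at 0.5 times the height or above, had a median of 900 bp and quartiles of 500 and 1300 bp. That was 56.3% of the full width at the median. Where a region held a pair of peaks, by the rule below, the span could cross both peaks and their valley. The 2975 regions with a pair had a median half-maximum width of 1100 bp and height of 53 reads. The 1847 without had 600 bp and 59 reads. Tall regions were narrow at half-maximum: the lowest height class (19 to 45 reads) had a median of 1300 bp and the highest (69 to 163 reads) 500 bp. Across these regions Spearman's rho of height with half-maximum width was -0.51. Regions are not independent replicates, and the minimum of 100 reads by itself ties low height to large width, so this is a description only.

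**Figure D1:**
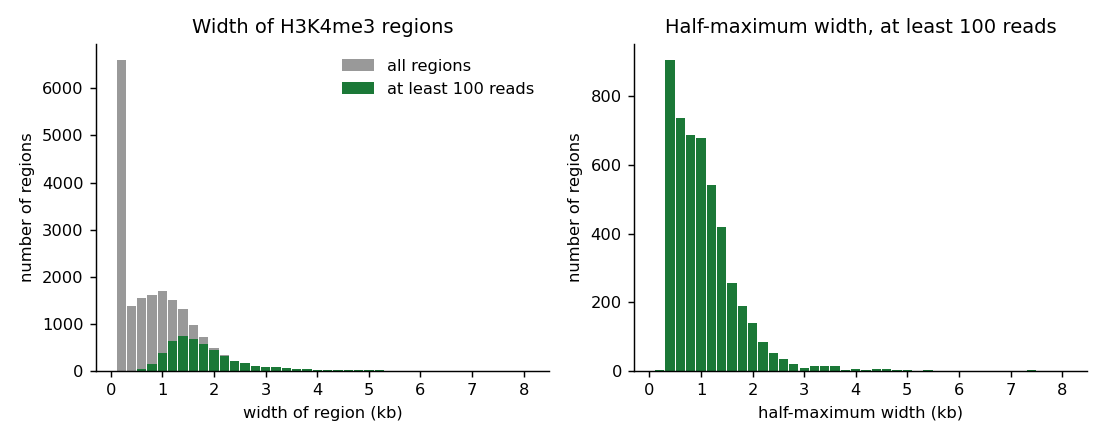
Number of H3K4me3 regions by width in kb (left; all 19057 regions in grey, the 4822 with at least 100 reads in green) and by half-maximum width in kb (right; at least 100 reads), in bins of 200 bp. Single-tile regions form the tall first grey bar, and half-maximum widths of the larger regions lie mostly under 2 kb.

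The tallest region lay on chromosome 1 from 90108001 to 90108800, with 163 H3K4me3 reads in its highest 300 bp and 15 WCE reads at the same place. It was 800 bp wide and 400 bp wide at half-maximum, and over the whole region 250 H3K4me3 reads stood against 26 WCE reads. The next by height, on chromosome 19 from 61254201 to 61254600, was unlike the others. Its 156 H3K4me3 reads came with 55 WCE, 56 H3K27me3 and 54 H3K9me3 reads, a ratio to WCE of 2.74 (2.0 to 3.79). With repeated reads kept it held 807 H3K4me3 reads in place of 156, so its height depends on how repeats are counted. The other tall regions, on chromosome 19 from 46357001, chromosome 6 from 136767801 and chromosome 6 from 29383201, reached 147, 133 and 132 reads with 4, 12 and 5 WCE reads at the summit. All 5 tallest regions were 300 to 500 bp wide at half-maximum. Reads were summed over 300 bp, so widths near that value lie at the limit of the measure. The span is also cut at the ends of a region, and the region on chromosome 19 from 61254201 was 400 bp wide in all.

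The widest region ran for 7600 bp on chromosome 14, from 27331001 to 27338600. It held 473 H3K4me3 reads against 43 in WCE, but no 300 bp of it had more than 41 reads. Its half-maximum width of 7300 bp spanned nearly all of it. The remaining 4 of the 5 widest were 6400 to 7200 bp wide, had heights of 52 to 89 reads and ratios to WCE of 10.0 to 13.1. All 5 contained a pair of peaks by the rule below.

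**Figure D2:**
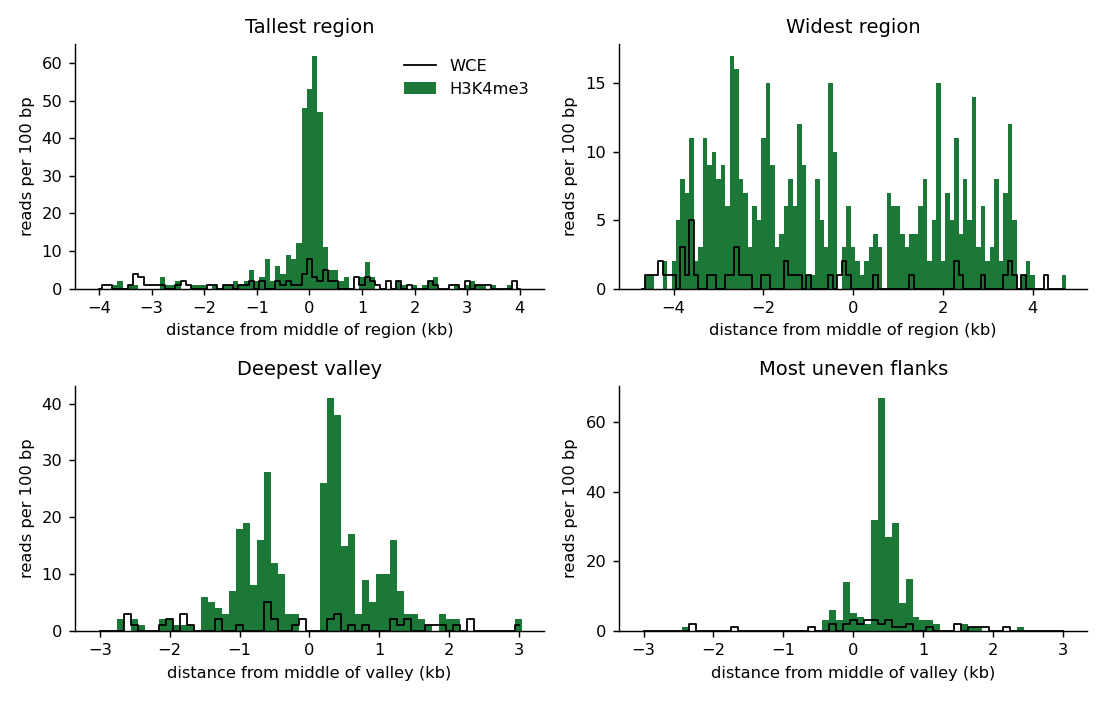
Reads per 100 bp (H3K4me3 as green bars, WCE as a black line) in the tallest region, the widest region, the pair of peaks with the deepest valley and the pair with the most uneven flanks, against distance in kb. The tallest region is 1 spike, the widest a low uneven run, and the deepest valley has no H3K4me3 read in 300 bp.

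Paired peaks were placed on forward-strand reads alone and measured on reverse-strand reads, because the highest and lowest points of a noisy profile are chosen extremes. A pair needed flanks 300 to 2000 bp apart, at least 8 placing reads per 300 bp in the lower flank, and a valley of at most 0.5 times that flank. There were 4173 pairs, at most 1 per region. Of the 4822 regions with at least 100 reads 2975 had a pair, as did 84.2% of those with at least 200, and the other pairs lay in regions of fewer reads. The flanks were a median of 700 bp apart, with quartiles of 600 and 1000 bp.

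The valley held on the reads not used to place it. Reverse-strand reads averaged 17.4 per 300 bp at the left flank, 5.501 in the valley and 18.3 at the right flank, a valley to flank ratio of 0.308 (0.304 to 0.312). On the placing reads the ratio was 0.174, lower because those reads chose the valley. Pair by pair, 2504 of the 4173 kept a held-out valley at or under 0.5 times the lower flank, and 153 had a valley no lower than the mean of their flanks. Placing on the reverse strand and measuring on the forward strand gave 4176 pairs and a ratio of 0.315 (0.311 to 0.320). By chromosome the held-out ratio ran from 0.282 to 0.375, so each of the 19 autosomes had it well under 1.

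The size of the ratio moved with the settings, most of all with the read shift. Each read was moved 60 bp along its strand, and without the shift the held-out ratio was 0.573, while a shift of 100 bp gave 0.544 and one of 50 bp 0.294. Moving sums of 500 bp gave 0.381 and of 200 bp 0.275, and a stricter valley limit of 33.3% of the lower flank gave 0.255. How ties between equally deep placements were settled also mattered. The tie rule was changed after held-out values had been seen: the first rule, which kept the first placement met from the left, gave 0.346 (0.341 to 0.351) over as many pairs.

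Valleys were shallower in WCE and deep in the other mark libraries. At the same places the valley to flank ratio was 0.816 (0.795 to 0.836) in WCE, from 2.09 reads in the valley and 2.56 at the flanks. It was 0.361 (0.348 to 0.375) in H3K27me3 and 0.337 (0.324 to 0.351) in H3K9me3, libraries that took no part in the placing. The regions held 3.26% of H3K27me3 reads and 3.74% of H3K9me3 reads, no more than the 3.84% of WCE reads. These ratios thus compare valley with flank inside a library and do not show peaks of those marks over WCE. The WCE ratio was 2.26 times (2.16 to 2.36) that of H3K27me3 and 2.42 times (2.31 to 2.54) that of H3K9me3. The H3K27me3 ratio was 1.17 times (1.13 to 1.22) the held-out H3K4me3 ratio, and the H3K9me3 ratio 1.09 times (1.05 to 1.14). Held-out H3K4me3 was also lowest at a shift of 50 bp, with 0.294 against 0.353 in H3K27me3 and 0.327 in H3K9me3. At 75 bp the ratios, in that order of libraries, were 0.366, 0.373 and 0.374, with overlapping intervals. Held-out H3K4me3 was highest with no shift (0.573, 0.464 and 0.410) and at 100 bp (0.544, 0.433 and 0.436). The order of these 3 libraries thus depended on the read shift and is not settled. The H3K4me3 value comes from 1 strand and the others from both. All 3 immunoprecipitated libraries thus dipped further than WCE at these places. Requiring at least 1 WCE read in the valley left 3081 pairs, whose WCE ratio was 1.05 and held-out H3K4me3 ratio 0.316. That requirement selects on the WCE reads it measures, so the WCE value there is a description.

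Averaged over all pairs, the profile rose and fell within about 2 kb. Densities were set against those 4000 to 5000 bp from the valley in the same library. Held-out H3K4me3 stood at 10.7 times (10.5 to 10.9) that level in the 300 bp of the valley and 24.0 times (23.6 to 24.4) at 200 to 700 bp on either side. It was 5.57 times at 1000 to 1500 bp and 1.77 times at 2000 to 2500 bp. WCE was raised too, at 3.28 times (3.19 to 3.36) in the valley and 3.18 times (3.13 to 3.24) beside it, with no dip on these windows. H3K27me3 had 1.44 times in the valley and 2.95 beside it, and H3K9me3 1.58 and 3.396. H3K4me3 valleys stayed above the surrounding level on average. Reads of both strands called the regions, so the rise of H3K4me3 over the far level describes that choice and is not a test.

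**Figure D3:**
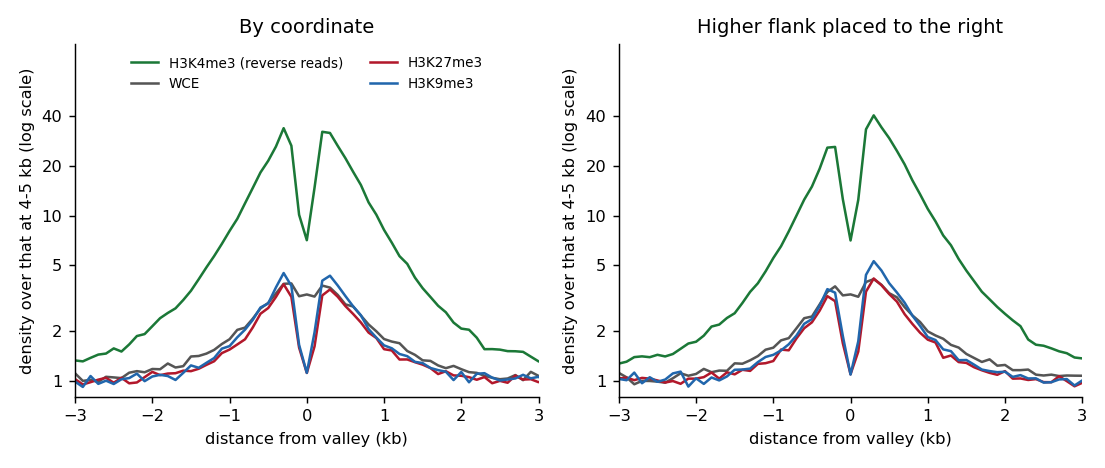
Read density (log scale, over that 4 to 5 kb away in the same library) by distance in kb from the valley of the 4173 pairs by coordinate (left) and of the 3995 with unequal flanks turned so that the flank higher on forward reads lies to the right (right). H3K4me3 is from reverse reads alone. H3K4me3, H3K27me3 and H3K9me3 dip at 0, and WCE shows a broad rise with little dip.

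Valleys were deeper where flanks lay further apart. The held-out ratio was 0.415 (0.404 to 0.426) for 931 pairs with flanks 300 to 500 bp apart, 0.295 at 600 to 800 bp, 0.266 at 900 to 1200 bp and 0.240 (0.228 to 0.251) for 443 pairs at 1300 to 2000 bp. WCE moved the same way over these classes, from 0.948 (0.902 to 0.997) to 0.586 (0.537 to 0.640). Its part in the H3K4me3 trend was not tested. A 300 bp valley sum always overlaps a flank sum in the closest class, which sets a limit on how deep a close valley can read. In the wider classes it can also overlap, since a valley may lie 100 bp from a flank. Shared reads then count on both sides of the ratio, while its interval takes the counts as separate. By flank height, the ratio was 0.389 in the lowest class and 0.268 in the highest, and WCE was 0.854 and 0.793.

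The deepest valleys were empty of H3K4me3 reads. Pairs were ranked over both strands among the 2381 in which both strands put the valley within 150 bp and the flanks averaged at least 20 reads, and 74 of them had 0 reads in the valley. On chromosome 19 from 5423601 to 5426400, the left flank held 52 H3K4me3 reads, the valley 0 and the right flank 105, with WCE at 5, 2 and 5. On chromosome 9 from 4309001 to 4310400 the counts were 91, 0 and 46, with WCE at 8, 6 and 1. WCE reads were thus present in both valleys. The other 3 were on chromosome 9 from 36516601 (124, 0 and 21 reads), chromosome 17 from 29216601 (72, 0 and 66) and chromosome 8 from 26481801 (75, 0 and 60). Rank among empty valleys followed flank height.

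Over all pairs, 105 had 0 H3K4me3 reads in the valley, counting both strands. At least 1 WCE read fell in 67 of these valleys, and summed WCE had 183 reads in the valleys against 238.5 per side at the flanks, a ratio of 0.767 (0.643 to 0.912). The same valleys held 28 H3K27me3 reads (ratio 0.126, 0.0825 to 0.184) and 11 H3K9me3 reads (0.0582, 0.0288 to 0.105). In 29 of the 105 valleys no library had a read, and there a lack of mappable sequence cannot be told apart from a lack of signal. The others held a read of at least 1 other library.

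The peaks of a pair, as placed, were unequal. The taller flank was chosen on forward reads, and on reverse reads it averaged 22.5 against 13.6 reads per 300 bp in the 3995 pairs with unequal placing flanks, a ratio of 1.65 (1.64 to 1.67). The same flank was the higher one on reverse reads in 3144 pairs (78.7%), and at least 2 times the other in 1594 (39.9%). Among tied placements the larger flank sum was taken, which favours a high partner flank, so the rule itself adds to the inequality. The first tie rule gave 1.37 (1.36 to 1.39) for this ratio. By chromosome it ran from 1.46 to 1.88. Neither side was favoured strongly, with the right flank taller in 52.8%, and in 49.6% when pairs were placed on reverse reads.

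The other libraries leaned to the same side. WCE had 1.19 times (1.16 to 1.22) as many reads at the flank that H3K4me3 forward reads called taller, H3K27me3 1.39 times (1.35 to 1.44) and H3K9me3 1.55 times (1.503 to 1.601). In pairs placed by the larger flank sum, the unevenness also reached past the summits. In profiles turned to put the taller flank on the right, held-out H3K4me3 was 1.98 times (1.95 to 2.01) as dense on the right as on the left at 800 to 1500 bp, and 1.33 times (1.30 to 1.36) at 1600 to 3000 bp. WCE gave 1.26 times (1.23 to 1.30) and 1.10 times (1.07 to 1.12) there.

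Among the pairs ranked for unevenness, the first lay on chromosome 8 from 129308001 to 129309200, with 12 H3K4me3 reads at the left flank and 125 at the right. Its strands disagreed at the valley, where 2 forward and 21 reverse reads fell, so its valley is uncertain. The next, on chromosome 17 from 32902401 to 32903600, had 124, 1 and 16 reads from left to right, with WCE at 9, 1 and 4. There the strands were alike, at 60, 0 and 8 forward and 64, 1 and 8 reverse reads. The other 3, on chromosomes 10, 4 and 17, had flank ratios of 6.64, 6.40 and 6.31.

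Regions of at least 100 reads without a pair by either placing numbered 1362. They were averaged around the summit of the forward reads, a mean that does not show how many summits each region had. In it, reverse reads stayed at or above their half-maximum over 400 bp and reached 64.2 times (62.3 to 66.2) the level 4000 to 5000 bp away. Reads of both strands called and selected these regions, so that rise describes the choice. WCE at the same places was 5.29 times (5.10 to 5.48) its own far level and stayed over its half-maximum for 700 bp. The WCE profile was centred on H3K4me3 summits and neither was corrected for background, so the spans of the libraries cannot be compared.

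Both strands contributed equally to the peaks. Forward reads made up 49.99% of H3K4me3 reads on the autosomes and a median of 50.0% per region, with 5th and 95th percentiles of 41.8 and 58.0%. In 8791 regions with at least 50 reads, a two-sided exact binomial test with Benjamini-Hochberg adjustment called 0 regions (0%). At an unadjusted p under 0.05 there were 364 (4.14%), and with repeated reads kept 6 regions were called.

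Reverse reads lay downstream of forward reads, as they do at the far ends of inserts. Between 40 and 300 bp, the number of opposite-strand read pairs inside regions, smoothed over about 20 bp, was highest at a reverse minus forward position of 90 bp for H3K4me3 and 76 bp for WCE. In WCE the count at 0 bp was higher still, at 530 smoothed pairs against 421 at 76 bp, so 76 bp is the maximum of that range only. The WCE curve is flat and sparse there, and its maximum moved to 112 bp outside regions and 109 bp when only forward reads were held to regions, where H3K4me3 gave 75 and 94 bp. Per region the difference between the strands' median positions had a median of 107 bp with quartiles of 61.9 and 151 bp for H3K4me3. A spike at 0 bp in WCE, 639 pairs against a mean of 464 at 8 to 15 bp on either side, is the pattern given when both strands list the left end of a read. The insert is then longer than the offset by a read length, which is not given in the sources used here.

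**Figure D4:**
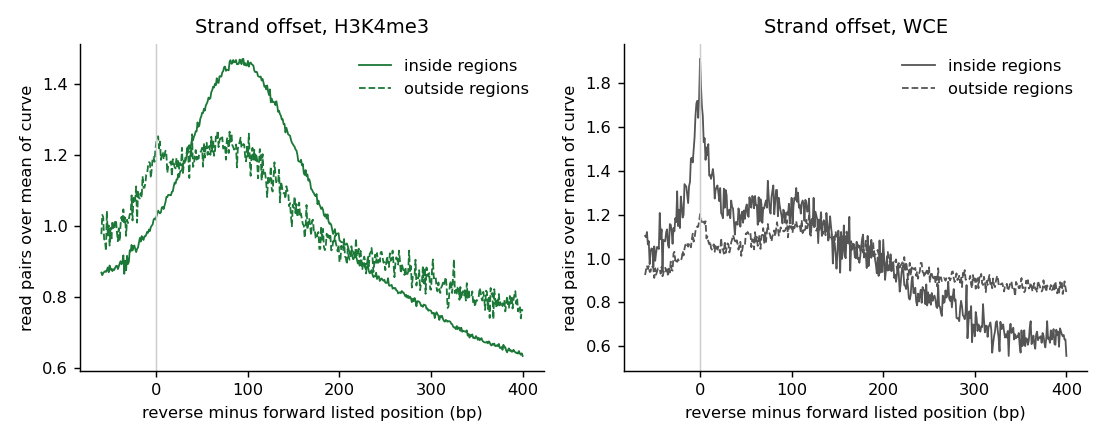
Opposite-strand read pairs by reverse minus forward listed position in bp (each curve over its own mean), inside (solid) and outside (dashed) regions, for H3K4me3 (left) and WCE (right). H3K4me3 inside regions has 1 broad maximum near 90 bp, and WCE has a spike at 0 bp with a flat rise beyond it.

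Regions were unevenly spread along chromosomes. The gap between neighbouring regions had a median of 33000 bp with quartiles of 9600 and 90600 bp, and 2139 gaps (11.2%) were 2000 bp or less. Between regions of at least 100 reads the median gap was 136800 bp, and 54 gaps (1.12%) were that short. The longest gap ran for 9668000 bp over all regions.

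Inside regions, counts of same-strand H3K4me3 read pairs fell from each 20 bp bin of distance to the next. Departures from a smooth cubic fit on the log2 scale were taken at 91 to 890 bp, over 25288277 pairs of reads. For H3K4me3 the largest fall was -0.033 at 250 bp and the largest rise 0.027 at 390 bp. Whether these departures form a repeat was not tested. At 170 and 190 bp, near the repeat length of nucleosomes, they were -0.01 and -0.01. WCE rose by 0.17 at 390 bp, and without the 10 regions that held at least 50 WCE reads its value there was -0.01. H3K4me3 at 390 bp was 0.03 with and without those regions. A repeat shorter than the spread of insert ends would not be detectable by this count.

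**Figure D5:**
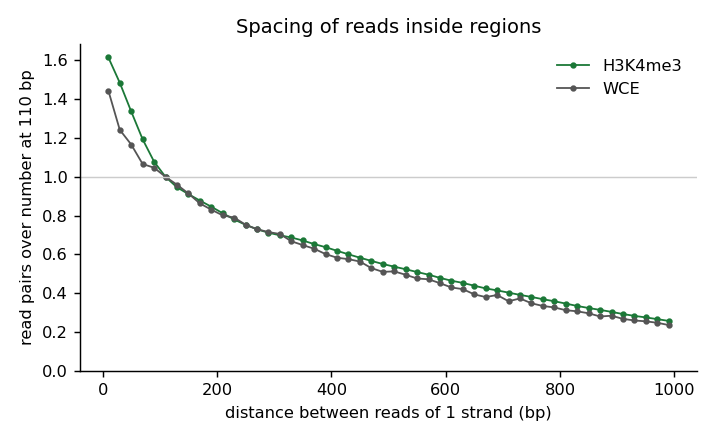
Pairs of reads of 1 strand inside regions by the distance between them in bp (20 bp bins, over the number at 110 bp), for H3K4me3 and WCE, without the 10 regions of at least 50 WCE reads. Both curves fall with distance, and that of H3K4me3 falls at every step.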

How the data were processed

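The deposited values are positions of single reads, negative where the read matched the reverse strand, with no peaks or counts; no other unit is in the files. Reads were aligned to mm8 with Bowtie, options e 70, k 2, m 2, n 2 and l 36, per the file headers. Bowtie is also in the submitters' processing notes, without a version. Reads with more than 2 places are thus missing, which can empty a valley or split a region.

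Reads with 1 position were collapsed to 1 per signed position and moved 60 bp along their strand. The expectation of a tile was the larger of the autosomal mean and the WCE density over 21 tiles, scaled to autosomal totals. Shape used 300 bp moving sums at 100 bp steps. Named regions are the 5 tallest, 5 widest, 5 deepest and 5 most uneven. Among placements with the same gap between lower flank and valley, the one with the larger flank sum was taken. This tie rule replaced an earlier one after held-out values had been seen, and it lowered the valley ratios and raised the asymmetry. The restriction of both strands to regions in the strand offset was also changed then. The swapped libraries, the 50 bp shift, the filter at 50 WCE reads, the cubic fit, the classes of pairs, the profile windows and the set without pairs were likewise chosen after the data were seen. The members and lists were chosen with earlier results of these data known. The calling and pair rules were run on simulated data, with a background drawn from the WCE density that also set the expectation. Strands there were assigned at random with no offset, so the simulation cannot speak to the read shift. Python 3.11.15, numpy 2.4.6, scipy 1.17.1, numba 0.67.0 and matplotlib 3.10.9 were used.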

Additional observations from a re-analysis of the deposited data

Results flagged for a closer look

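Signal also lay in reads outside the main measurement. Chromosome X was left out of the autosomal regions. On it 1781 of 571998 tiles were called (0.311%, against 0.662% on the autosomes), and 20 with the libraries swapped. The called tiles formed 523 regions with a pooled H3K4me3 to WCE ratio of 11.6 (11.0 to 12.2). Since the regions were called on these reads, that ratio describes the choice. Their 73 pairs had a held-out valley ratio of 0.344 (0.302 to 0.391). Of the places listed for H3K4me3 reads with 2 reported positions, 13.2% (13.01 to 13.35%) fell in the autosomal regions, against 1.58% (1.52 to 1.64%) for WCE. These reads were set aside in the shape measurements because each is listed at both of its places.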

How the results depend on the processing

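No paired analysis was possible because each group holds 1 library, and for the same reason no library could be left out. Of 162 alternative values, 87 stayed within the 95% interval of the reported value (for counts within 1.5 times, for offsets within 10 bp) and 75 moved, mostly by little since the intervals are narrow. None turned the direction of a valley in H3K4me3 or of an asymmetry. The order of held-out H3K4me3 against H3K27me3 and H3K9me3 valleys turned with no shift and at 100 bp. Among valley ratios of the other libraries the exception was WCE, whose valley ratio passed 1 when at least 1 WCE read was required in the valley.

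The H3K4me3 valley depended most on the read shift. Held-out ratios were 0.573 with no shift, 0.366 at 75 bp, 0.544 at 100 bp and 0.294 at 50 bp. WCE, H3K27me3 and H3K9me3 gave 0.876, 0.464 and 0.410 with no shift and 0.850, 0.433 and 0.436 at 100 bp. H3K9me3 gave 0.374 at 75 bp. Asymmetry at 100 bp was 1.61, and median height was 53 reads both with no shift and at 100 bp. The first tie rule gave valley ratios of 0.346 in held-out H3K4me3, 0.866 in WCE, 0.402 in H3K27me3 and 0.378 in H3K9me3, and an asymmetry of 1.37. Its pairs numbered 4173 as well.

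Sums of 500 bp gave 1918 pairs, ratios of 0.381, 0.755, 0.406 and 0.404 in the same order of libraries, a median height of 76 reads and a half-maximum width of 1000 bp. Sums of 200 bp gave 0.275 in held-out H3K4me3, 0.334 in H3K27me3 and 0.305 in H3K9me3, with an asymmetry of 1.56. A valley limit of 33.3% of the lower flank gave 0.255, 0.777, 0.302 and 0.278. Requiring a WCE read in the valley gave 0.316, 1.05 and 0.393 in held-out H3K4me3, WCE and H3K27me3. Placing on reverse reads gave 0.315.

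With all reads kept, median height was 59 reads, half-maximum width 800 bp, asymmetry 1.72, the WCE offset 116 bp, and 6 regions had an uneven strand share. Offsets outside regions were 75 bp in H3K4me3 and 112 bp in WCE, and holding only forward reads to regions gave 109 bp in WCE. Regions of at least 200 reads had a median height of 67 reads and half-maximum width of 1300 bp. Among named regions, 59 of 60 alternative read counts stayed within 1.5 times.

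Median region width was 500 bp with tiles of 100 bp, 1000 bp with tiles of 500 bp (44854 called), and 400 bp both against a uniform expectation and with no joining. With no joining the median gap was 11600 bp and the flank distance 600 bp. Joining across 1000 bp gave a gap of 38600 bp, and regions of at least 100 reads gave 136800 and 800 bp. Swapping the libraries called 206 tiles.

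The percent of H3K4me3 reads in regions was 40.1 with all reads, 36.4 and 41.4 with tiles of 100 and 500 bp, and 38.7, 38.9 and 38.8 at shifts of 0, 75 and 100 bp. It was 43.7 against a uniform expectation, 38.3 and 39.9 with WCE over 1 and 10 kb, and 41.5 with scaling by 100 kb bins. It was 35.9 at an adjusted p under 0.001, 35.0 with reads thinned to 50%, 38.6 with 2-position reads, 37.9 and 39.4 with joining gaps of 0 and 1000 bp, and 38.9 without regions of at least 50 WCE reads. The cause of these moves was not tested. A tile needed at least 4 reads to be called, so weaker peaks were not detectable at this depth.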
